A study of Mus musculus with 6 samples.

Results

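The 8 muscle microRNA genes Mir1a-1, Mir1a-2, Mir133a-1, Mir133a-2, Mir133b, Mir206, Mir208b and Mir499 were examined for chromatin accessibility in myonuclei after knockdown of Yap. Members were taken by gene symbol from a table of read counts in windows that extend 1 kb to each side of annotated gene starts, and 6 of the 8 symbols had a window there, among 49366 windows in all and 1596 windows of microRNA genes. Mir1a-2 and Mir206 had no counts there and are not analysed here as windows. The authors had dropped features whose mean count was below 10. A microRNA gene's annotated start is the 5′ end of its hairpin, so these 2001-bp windows measure the chromatin around the hairpin, not the start of the longer transcript from which the hairpin is cut. None of the 6 windows passed the test of a difference between Yap-shRNA and LacZ-shRNA, while their levels within the same nuclei spanned from 6.82 CPM for Mir133b to 131 CPM for Mir133a-2 (counts scaled to the library size and normalised by the trimmed mean of M values, TMM, and averaged over the 6 samples).

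ATAC-seq, which marks open DNA with a transposase that inserts sequencing adapters, was run on nuclei sorted for PCM1, a protein at the envelope of muscle fibre nuclei. Both groups were gastrocnemius and tibialis anterior muscles of male C57BL/6J mice aged 8 weeks, collected 28 days after AAV6 vectors carrying a short hairpin RNA against Yap (Yap-shRNA, n = 3) or against lacZ, a bacterial gene (LacZ-shRNA, n = 3), had been injected into contralateral limbs. Each replicate pooled 4 gastrocnemius and 4 tibialis anterior muscles, so single animals cannot be told apart, and all samples had been exposed to an AAV6 vector and an shRNA. Window counts totalled from 3326803 to 10319467 per sample, the lowest in LacZ-shRNA replicate 2, and peak counts from 2588520 to 6871176.

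microRNAs are short RNAs cut from hairpins in longer transcripts, and they lower the output of mRNAs that pair with their seed, bases 2 to 8. The miR-1 and miR-133 families are made together, from paired hairpins in shared transcripts, and are among the most abundant microRNAs of striated muscle. miR-206, a relative of miR-1, is paired with miR-133b and is known from skeletal muscle, its regeneration and slow fibres. miR-208b and miR-499 lie in introns of the slow myosin genes Myh7 and Myh7b and act in the slow fibre programme. Transcription of these genes is known to depend on MEF2, SRF and the myogenic factors, which bind E-boxes, and Yap acts through TEAD factors.

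Mature sequences from RefSeq (GRCm38.p6) were matched for 5 of the members. For Mir1a-1 only the 5p arm was matched, and for Mir1a-2, Mir133a-1 and Mir133a-2 none, so the miR-1 and miR-133 seed groups are incomplete here. A selection of the matched sequences is shown with the seed in capitals. They lie at chr1:20679055-20679076 and chr1:20679017-20679039 (miR-206), chr2:180389057-180389079 (miR-1a-1-5p) and chr1:20682834-20682855 (miR-133b-3p) on the plus strand. miR-208b-3p (chr14:54975710-54975731) and its relative miR-208a-3p (chr14:54949072-54949093), from the cardiac myosin gene Myh6 and no member, lie on the minus strand, and miR-499-5p (chr2:155622893-155622913) on the plus strand.
miR-206-3p: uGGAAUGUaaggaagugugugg
miR-206-5p: aCAUGCUUcuuuauauccucaua
miR-1a-1-5p: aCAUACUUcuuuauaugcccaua
miR-133b-3p: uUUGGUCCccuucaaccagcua
miR-208b-3p: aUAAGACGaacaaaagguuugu
miR-208a-3p: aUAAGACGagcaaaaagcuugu
miR-499-5p: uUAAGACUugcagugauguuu
The 7 seed bases of miR-208b-3p and miR-208a-3p are the same, and the full sequences share 19 of 22 positions. miR-499-5p shares the first 6 of the 7 seed bases with miR-208b-3p but only 10 of 21 positions over its length. The 5p arms of miR-206 and miR-1a-1 share 20 of 23 positions and 6 of 7 seed bases. The cluster partners miR-206-3p and miR-133b-3p come from one transcript yet have 1 of 7 seed bases in common.

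The Mir206 hairpin (chr1:20679010-20679082, plus strand, RefSeq GRCm38.p6) is shown because its seed letters are also those of a binding motif. Capitals mark bases 47 to 53, GGAAUGU, the miR-206-3p seed.
Mir206 hairpin: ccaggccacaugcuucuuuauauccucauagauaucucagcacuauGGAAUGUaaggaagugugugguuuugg
Read as DNA, the seed is GGAATGT, the reverse complement of ACATTCC, the core motif of TEAD factors. Exact matches to ACATTCC on either strand were present in the 2 kb around 4 of the 8 hairpins. At Mir1a-1, Mir1a-2 and Mir206 the match lay inside the hairpin itself, 49, 47 and 46 bp from its 5′ end. These hairpins are of the related miR-1 and miR-206, so their matches are not independent. Only the match at Mir133a-1 lay outside a hairpin. Of 49324 windows of genes with sequence, 23.9% held a match to ACATTCC. The E-box CAGCTG was present around 6 of the hairpins, against 60.6% of all windows, and inside the hairpins of Mir133a-2, with 2 matches, Mir133a-1 and Mir499. The MEF2 core, TATTTATA or TATTTTTA, was present around Mir133a-1 and Mir133b, against 35.5% of all windows. A match is a description of the letters and not a bound site.

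The strongest accessible regions near a member lay upstream of Mir1a-1 on chromosome 2, and 300 bases of each of the 2 with the highest level are printed with motif matches in capitals (GRCm38, plus strand). The first, at chr2:180385178-180385477, belongs to peak PK25470 (chr2:180384247-180386409), 2639 bp before the hairpin. That peak overlaps an exon of the noncoding gene B230312C02Rik, whose start lies in the peak or within 1 kb of it. The second, at chr2:180363072-180363371, belongs to the intergenic peak PK25468 (chr2:180361731-180364697), 24351 bp before the hairpin.
PK25470: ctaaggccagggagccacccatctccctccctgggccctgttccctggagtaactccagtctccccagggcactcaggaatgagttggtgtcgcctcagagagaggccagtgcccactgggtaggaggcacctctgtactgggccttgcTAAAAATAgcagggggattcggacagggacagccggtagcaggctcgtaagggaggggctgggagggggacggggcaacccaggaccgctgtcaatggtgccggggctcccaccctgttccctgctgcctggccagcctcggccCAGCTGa
PK25468: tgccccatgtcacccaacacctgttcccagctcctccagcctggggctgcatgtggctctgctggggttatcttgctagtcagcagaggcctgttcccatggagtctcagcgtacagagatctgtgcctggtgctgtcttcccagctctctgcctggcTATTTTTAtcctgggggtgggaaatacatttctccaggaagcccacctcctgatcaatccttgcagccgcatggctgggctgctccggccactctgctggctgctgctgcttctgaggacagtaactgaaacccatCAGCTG
Each stretch holds 1 MEF2 core and 1 E-box, at bases 150 and 294 of the first and at bases 159 and 295 of the second. The 300 bases were placed to include the most motif matches in each peak, so that pairing is a product of the choice. Over their whole lengths of 2163 and 2967 bp the peaks held 5 and 3 E-boxes and 1 MEF2 core each, and PK25468 also held 1 TEAD match. Among all 35982 peaks with sequence, which differ in length, 40.3% held an E-box, 14.5% a MEF2 core and 8.96% a TEAD match.

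The members fall into 3 clusters and 2 intronic genes. Mir1a-1 (ENSMUSG00000070144, chr2:180389048-180389124, plus strand) and Mir133a-2 (ENSMUSG00000065460, chr2:180398379-180398482, plus strand) are 9254 bp apart and overlap no annotated gene. Mir1a-2 (chr18:10785481-10785552, minus strand) and Mir133a-1 (ENSMUSG00000065399, chr18:10782909-10782976, minus strand) are 2504 bp apart in introns of Mib1, a ubiquitin ligase gene on the opposite strand, and of the host transcript Mir133a-1hg. Mir206 and Mir133b (ENSMUSG00000065480, chr1:20682769-20682887, plus strand) are 3686 bp apart in exons of the noncoding host Gm28653. Mir208b (ENSMUSG00000077928, chr14:54975700-54975776, minus strand) is in an intron of Myh7, and Mir499 (ENSMUSG00000076312, chr2:155622880-155622958, plus strand) in an intron of Myh7b. The Mir208b window shares 844 bases with that of the predicted gene Gm17428, so its count is uncertain. The annotated windows of Mir1a-2 and Mir206, for which no counts were available, overlap those of other genes too. Whether the overlap bears on their absence was not tested.

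The levels of the 6 windows were compared with those of all windows of the same length, since every member window covers 2001 bp. The median was 8.20 CPM over 30301 windows of this length and 8.14 CPM over the 1596 microRNA windows among them. Mir133a-2 was rank 4 and Mir1a-1 rank 9 among microRNA windows, percentiles 99.8 and 99.5. Mir133a-1 was rank 62 and Mir499 rank 82, percentiles 96.2 and 94.9. Mir208b, whose count is uncertain, and Mir133b were ordinary, at ranks 617 and 1023 and percentiles 61.4 and 36.0. Thus 3 of the 6 windows lay above 18.9 CPM, the 95th percentile of microRNA windows. In bulk samples, fewer nuclei with an open site and less opening per nucleus cannot be told apart.

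**Figure D1:**
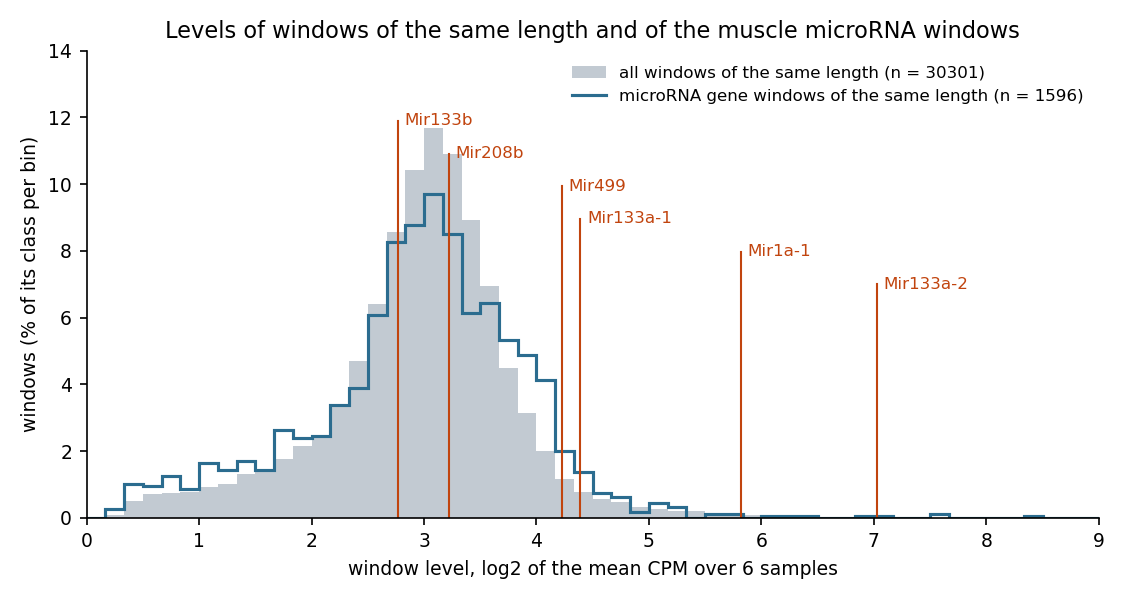
Share of windows (%) in each bin of log2 mean CPM over the 6 samples, for all 30301 windows of 2001 bp (grey) and the 1596 microRNA gene windows (blue line), with the 6 muscle microRNA windows as vertical lines whose heights carry no value. Mir133a-2 and Mir1a-1 stand far to the right of most microRNA windows, while Mir208b and Mir133b stand within their bulk.

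The order of levels was clear at the top, from Mir133a-2 to Mir1a-1 to Mir133a-1. Mir133a-2 exceeded its cluster partner Mir1a-1 by 2.31-fold and in 6 of 6 samples, with ranges that did not overlap. Mir1a-1 in turn exceeded Mir133a-1 by 2.69-fold in 6 of 6 samples, again with separate ranges. Mir133a-1 and Mir499 did not differ beyond their spread, with a ratio of 1.12, overlapping ranges and Mir133a-1 the higher in 4 of 6 samples. Mir499 exceeded Mir208b by 2.01-fold in 6 of 6 samples, with separate ranges. The size of this step is uncertain, because the Mir208b window shares 844 bases with that of Gm17428 and the handling of shared reads is not stated. Mir208b was higher than Mir133b in 6 of 6 samples, by 1.37-fold, but their ranges overlapped. The windows of the Mir133a-1 and Mir133a-2 hairpins, which give the same mature miR-133a, therefore held unequal levels. Of these windows only that of Mir133a-1, the lower, overlapped a called peak.

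Within each group the values varied by sample. The Mir133a-2 window held 81.6, 130 and 149 CPM in LacZ-shRNA replicates 1, 2 and 3 and 168, 135 and 120 CPM in Yap-shRNA replicates 1, 2 and 3. LacZ-shRNA replicate 1 was the low sample and Yap-shRNA replicate 1 the high one, and the other 4 values were interleaved. Its log2 fold change, Yap-shRNA against LacZ-shRNA, was 0.23 (SE 0.16, 95% interval -0.10 to 0.56, adjusted p 0.949 by edgeR's quasi-likelihood test). Without LacZ-shRNA replicate 1 it was 0.0041.

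Mir1a-1, which gives miR-1, one of the most abundant microRNAs of adult muscle, held 44.1, 76.6 and 61.3 CPM in LacZ-shRNA and 62.3, 50.6 and 43.8 CPM in Yap-shRNA. The lowest values of the groups were nearly the same, and the groups overlapped over most of their range. The log2 fold change was -0.20 (SE 0.16, 95% interval -0.51 to 0.12, adjusted p 0.95 in edgeR), and -0.022 without LacZ-shRNA replicate 2.

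Mir133a-1 held 20.6, 20.8 and 25.7 CPM in LacZ-shRNA and 24.7, 20.9 and 13.2 CPM in Yap-shRNA. Yap-shRNA replicate 3 lay below the other 5 samples, which were close to each other. The log2 fold change was -0.20 (SE 0.17, 95% interval -0.56 to 0.15, adjusted p 0.951 in edgeR), and 0.0088 without Yap-shRNA replicate 3.

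Among the slow myosin microRNAs, the Mir499 window held 12.1, 26.0 and 16.3 CPM in LacZ-shRNA and 18.7, 16.4 and 22.9 CPM in Yap-shRNA. The LacZ-shRNA samples held both the lowest and the highest value. The log2 fold change was 0.16 (SE 0.19, 95% interval -0.22 to 0.54, adjusted p 0.962 in edgeR), and -0.036 without LacZ-shRNA replicate 1. Mir208b held 8.86, 8.33 and 8.09 CPM in LacZ-shRNA and 10.5, 8.57 and 11.6 CPM in Yap-shRNA. Its groups overlapped through Yap-shRNA replicate 2 alone, and its log2 fold change of 0.27 (SE 0.20, 95% interval -0.14 to 0.68, adjusted p 0.949 in edgeR) was the highest of the 6. Its counts were from 26 to 103 reads per sample.

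Mir133b, partner of Mir206, held 6.87, 5.45 and 6.95 CPM in LacZ-shRNA and 6.11, 6.70 and 8.81 CPM in Yap-shRNA. Yap-shRNA replicate 3 was the high sample, and without it the log2 fold change of 0.13 (SE 0.24, 95% interval -0.36 to 0.62, adjusted p 0.979 in edgeR) became -0.032. The counts behind these values ran from 17 to 76 reads.

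**Figure D2:**
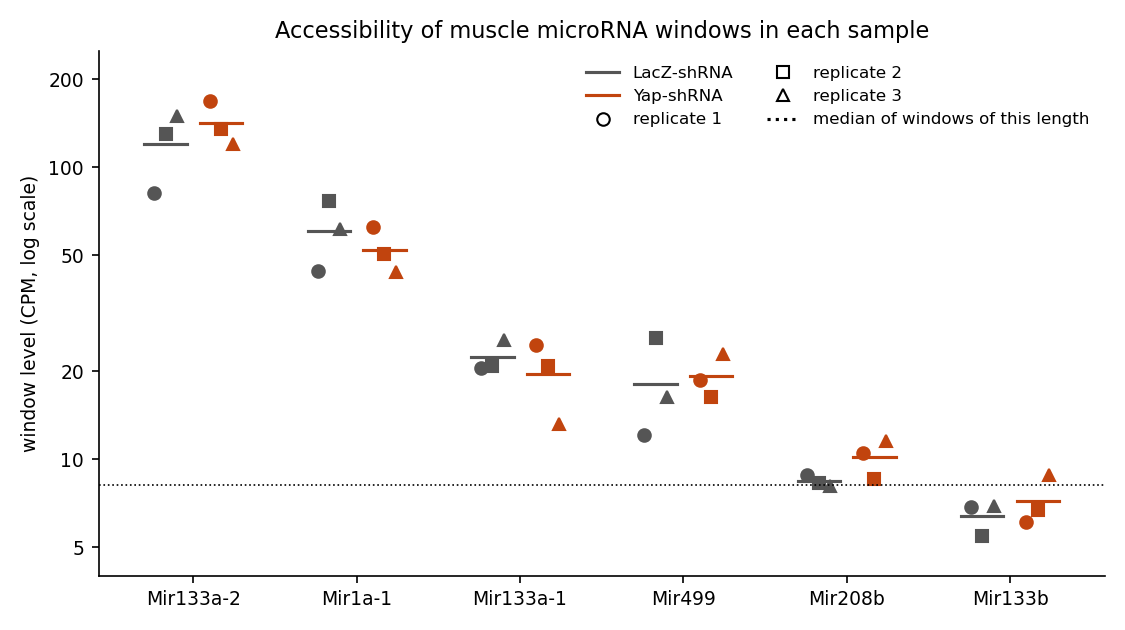
Level of each muscle microRNA window (CPM, log scale) in the 3 LacZ-shRNA (grey) and 3 Yap-shRNA (orange) samples, with marker shapes for replicate numbers, short lines for group means and a dotted line at 8.20 CPM, the median of all windows of 2001 bp. The groups overlap for each of the 6 genes, and the ranges of Mir133a-2, Mir1a-1 and Mir133a-1 are separate from each other while those of Mir133a-1 and Mir499 overlap.

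Across the 6 windows 0 passed the adjusted threshold of 0.05, against 11 of all 49366 windows (0.0223%). An unadjusted p under 0.05 was seen in 0 of 6, against 4.90% of all windows, and groups that did not overlap in 0 of 6, against 10.1%. By sign, 4 were higher and 2 lower in Yap-shRNA, with a median log2 fold change of 0.15 against -0.014 over all windows. The likelihood-ratio test and limma voom also called 0 of them, as did DESeq2, which gave an adjusted p to 2 of the 6. The intervals exclude a log2 change of 1 in either direction for each window and leave room for changes such as 0.56 on the log2 scale for Mir133a-2 and -0.56 for Mir133a-1. They bound the counts of these windows and not changes at sites elsewhere.

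The sum of the 6 levels was 174, 267 and 267 CPM in LacZ-shRNA and 290, 239 and 221 CPM in Yap-shRNA, lowest in LacZ-shRNA replicate 1. Taken singly, 2 of the 6 windows, Mir133a-2 and Mir499, were lowest in that library. That library was also the lowest in the summed windows of 13 myonuclear marker genes such as Ckm, Ttn and Acta1, at 1170.5 CPM against 1265.6 to 1631.9 CPM in the other 5 samples, and in 7 of the 13 genes taken singly. It was the lowest too in the sums of leukocyte markers (145.3 CPM) and of smooth muscle and pericyte markers (90.8 CPM). In the satellite cell, fibroblast and endothelial sums it was not the lowest. Its part in the values of the microRNA windows was not tested. Leukocyte markers, with 8 of 9 listed genes measured and none at 0, summed to 145.3 to 160.5 CPM in LacZ-shRNA and 167.6 to 175.1 CPM in Yap-shRNA, which do not overlap. The 7 fibroblast markers summed to 206.3 to 240.2 and 230.2 to 289.6 CPM, which overlap. Single genes went both ways, with 6 higher and 2 lower in Yap-shRNA for leukocytes and 4 higher and 3 lower for fibroblasts. The smallest p of each list was that of a higher gene, Csf1r (log2 fold change 0.32, SE 0.14) and Col1a1 (0.39, SE 0.14), both with an adjusted p of 0.946 in edgeR. Markers of satellite cells (5), endothelial cells (8) and smooth muscle (5) also had overlapping sums, none of these genes was at 0, and 0 genes of any marker list passed the threshold. Endothelial genes were 5 higher and 3 lower, and the lower Kdr had the smallest p of them (log2 fold change -0.59, SE 0.17, adjusted p 0.909 in edgeR). Satellite cell genes were 2 higher and 3 lower, with the smallest p for the lower Calcr (-0.37, SE 0.16, adjusted p 0.946 in edgeR). Whether these differences bear on the microRNA windows was not tested.

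**Figure D3:**
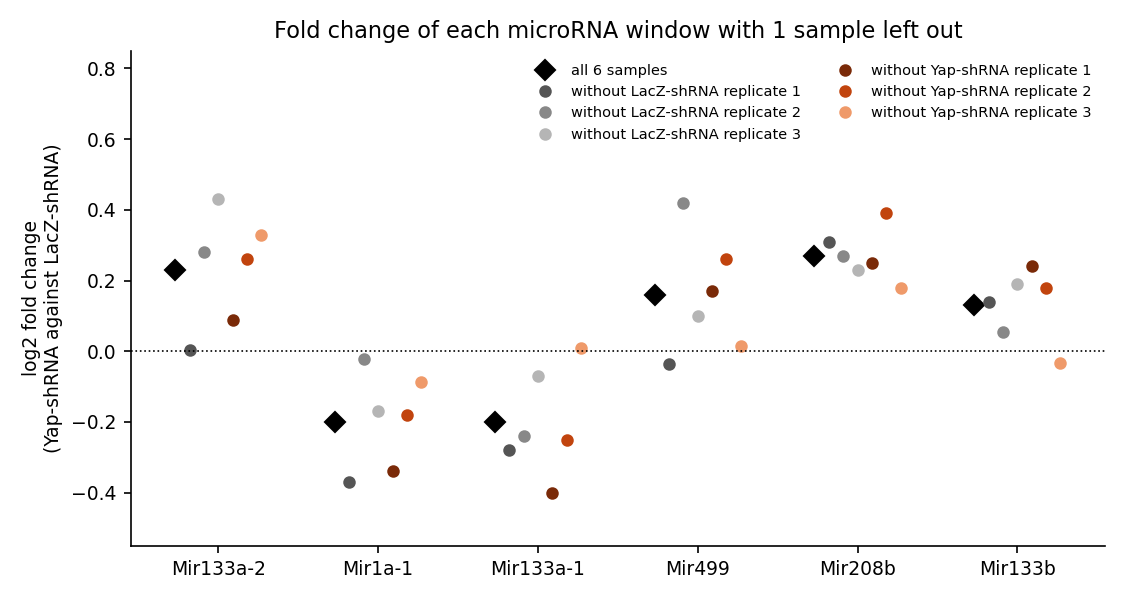
Log2 fold change of each muscle microRNA window, Yap-shRNA against LacZ-shRNA, with all 6 samples (black diamond) and with each sample left out in turn (circles, grey for a LacZ-shRNA and orange for a Yap-shRNA sample). The points of Mir208b stay above 0 and those of Mir1a-1 below it, those of Mir133a-2 come down to 0.0041, and those of Mir133a-1, Mir133b and Mir499 fall on both sides.

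Host genes and neighbours were examined next, because a shared transcript starts at the host and not at the hairpin. B230312C02Rik, the noncoding gene whose start lies in PK25470 or within 1 kb of it, held 87.4, 109 and 118 CPM in LacZ-shRNA and 105, 83.2 and 80.3 CPM in Yap-shRNA in a window of 2001 bp, at the 99.9th percentile of that length. Its groups overlapped, at a log2 difference of -0.23 (SE 0.14, adjusted p 0.946 in edgeR). The start window of Myh7b, host of Mir499, had a log2 fold change of 0.22 (SE 0.15), that of Myh7, host of Mir208b, 0.073 (SE 0.14) and that of Mib1 -0.027 (SE 0.14). Gm28653, host of Mir206 and Mir133b, held 9.05, 12.5 and 12.1 CPM in LacZ-shRNA and 10.8, 9.40 and 10.2 CPM in Yap-shRNA (log2 fold change -0.14, SE 0.19). Its window overlaps that of Mir206, as the Mir133a-1hg and Mir1b windows overlap that of Mir1a-2, so these counts are uncertain. Per kilobase covered, the hairpin window held 9.37 CPM at Mir499 and 9.32 CPM at Myh7b, 4.66 at Mir208b and 5.89 at Myh7, and 10.5 at Mir133a-1 and 7.12 at Mib1. The order of Mir208b and Myh7 is uncertain, because their windows overlap those of Gm17428 and Gm29015. Of the 8 windows in the list of hosts and neighbours, which does not hold B230312C02Rik, 0 were past the threshold and the median log2 fold change was 0.023. Higher were Myh7, Myh7b, Myh6 and Mir208a (4), and lower were Mib1, Gm28653, Mir133a-1hg and Mir1b (4). Myh6, the cardiac myosin gene next to Myh7, had the smallest p of them, at 0.25 on the log2 scale (SE 0.14, adjusted p 0.946 in edgeR).

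Peaks, regions called from the read pile-ups, gave a second measure that the choice of members had not used. Within 50 kb of a member hairpin lay 15 peaks, of which 4 were within 10 kb. The threshold was passed by 0 of the 15, against 223 of all 36097 peaks (0.618%). An unadjusted p under 0.05 was seen in 2 of 15, both lower in Yap-shRNA, against 8.90% of all peaks. Groups did not overlap in 1 of 15, against 13.3%. By sign 7 were higher and 8 lower, with a median log2 fold change of -0.0097 against -0.0026 over all peaks.

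At the Mir1a-1 and Mir133a-2 cluster all 4 peaks were upstream of Mir1a-1. PK25468 held 142, 167 and 148 CPM in LacZ-shRNA and 168, 144 and 141 CPM in Yap-shRNA, at the 99.3rd percentile of all peaks, which differ in length. PK25470 held 132, 146 and 151 CPM in LacZ-shRNA and 146, 127 and 114 CPM in Yap-shRNA, at percentile 99.1. The groups overlapped at both, with log2 fold changes of -0.0097 (SE 0.14) and -0.15 (SE 0.13). PK25469, in an intron of B230312C02Rik 11235 bp before Mir1a-1, held 77.8, 96.8 and 84.6 CPM in LacZ-shRNA and 83.8, 69.8 and 63.0 CPM in Yap-shRNA. Yap-shRNA replicates 2 and 3 lay below the LacZ-shRNA samples and replicate 1 among them, and the log2 fold change was -0.25 (SE 0.13, 95% interval -0.51 to 0.01, adjusted p 0.596 in edgeR). The fourth peak, 41424 bp away, was lower, at 23.1 to 29.3 CPM (log2 fold change 0.16, SE 0.15).

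At the Mir1a-2 and Mir133a-1 cluster lay 3 peaks. PK20806 (chr18:10780807-10782605), 304 bp downstream of the Mir133a-1 hairpin and sharing 630 bases with its window, was the only peak that overlapped a member window. It held 35.9, 37.4 and 53.8 CPM in LacZ-shRNA and 59.0, 48.5 and 22.3 CPM in Yap-shRNA, so that Yap-shRNA held both the highest and the lowest sample. The log2 fold change was 0.00068 (SE 0.19, 95% interval -0.37 to 0.38, adjusted p 0.999 in edgeR), and it took either sign when samples were left out, from -0.28 to 0.29. PK20807 (chr18:10787351-10788577), 1799 bp upstream of Mir1a-2 in an intron of Mib1, held 52.0, 39.9 and 49.1 CPM in LacZ-shRNA and 44.6, 40.3 and 34.7 CPM in Yap-shRNA (log2 fold change -0.25, SE 0.13, adjusted p 0.597 in edgeR). PK20808 (chr18:10789433-10790403), 3881 bp upstream, held 28.8, 23.4 and 28.3 CPM in LacZ-shRNA and 27.3, 20.8 and 16.4 CPM in Yap-shRNA. Its unadjusted p was 0.047 and its adjusted p 0.551 in edgeR, with a log2 fold change of -0.33 (SE 0.16). Yap-shRNA replicate 3 was the lowest of the 6 samples at each of these 3 peaks and at 7 of the 15 peaks in all.

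**Figure D4:**
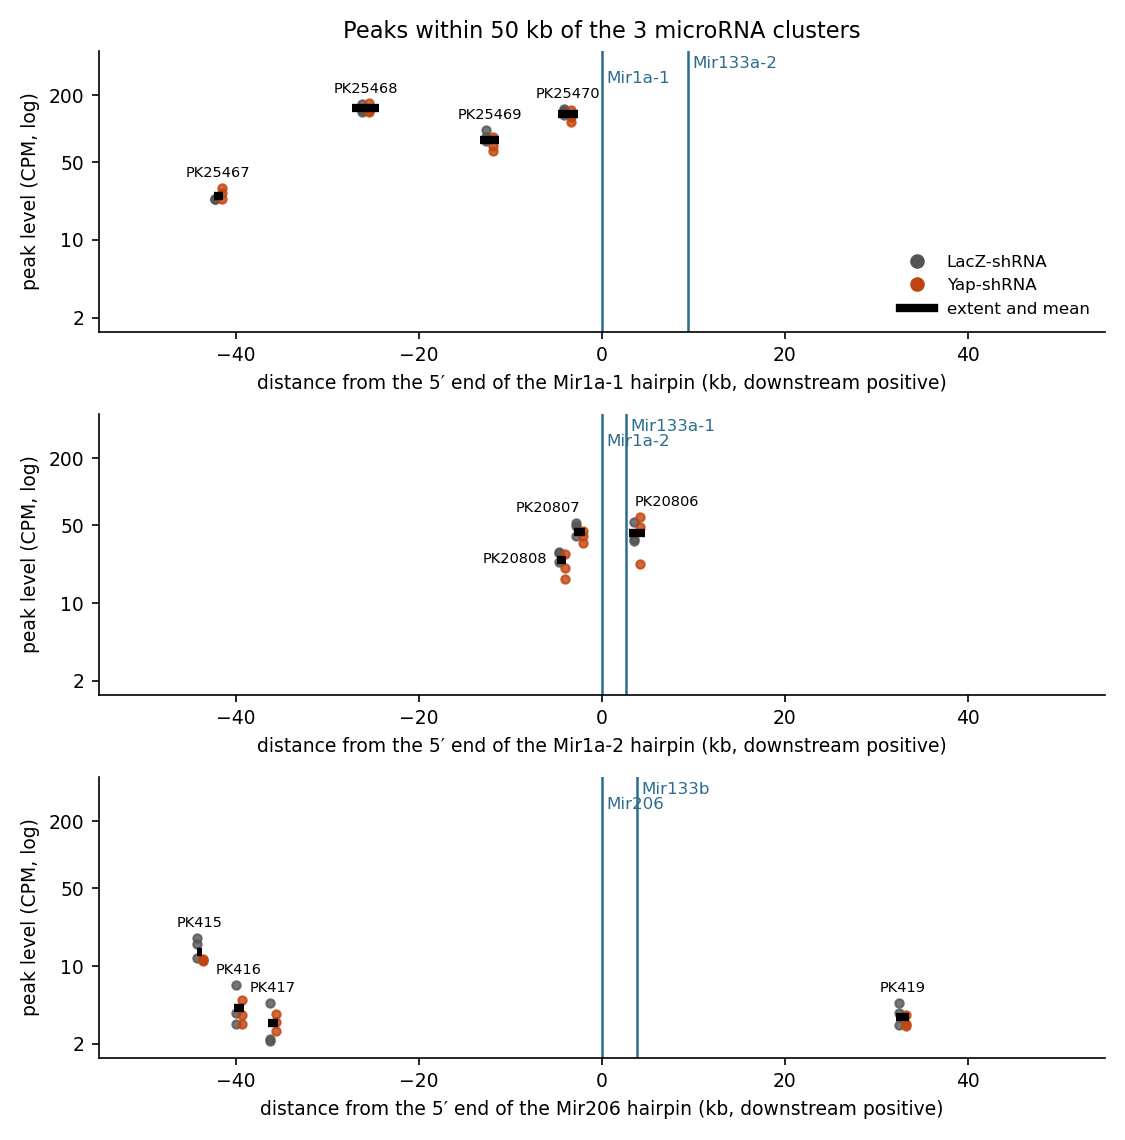
Level (CPM, log scale) of each peak within 50 kb of the 3 microRNA clusters against its distance in kb from the first hairpin, with points for LacZ-shRNA (grey) and Yap-shRNA (orange) samples, black bars for the peak's extent at its mean level, and blue lines at the hairpins. Points are offset sideways by group. The peaks upstream of Mir1a-1 reach 168 CPM, those beside Mir1a-2 and Mir133a-1 59.0 CPM, and those around Mir206 and Mir133b 17.8 CPM.

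Around Mir206 and Mir133b the peaks were few, distant and low. The nearest 3 peaks to this cluster, PK416, PK417 and PK419, lay 28306 bp or more from either hairpin and held from 2.12 to 6.79 CPM. PK415 (chr1:20634773-20635360), an intergenic peak 43650 bp upstream of Mir206, held 17.8, 11.9 and 15.8 CPM in LacZ-shRNA and 11.7, 11.3 and 11.1 CPM in Yap-shRNA. It was the 1 peak of 15 with separate groups, although LacZ-shRNA replicate 2 at 11.9 CPM lay next to Yap-shRNA replicate 1 at 11.7 CPM. The log2 fold change was -0.45 (SE 0.19, 95% interval -0.84 to -0.06), with an unadjusted p of 0.0259 and an adjusted p of 0.449 in edgeR, so it did not pass the threshold.

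Near the myosin microRNAs the 4 peaks were at or in other genes. Those within 50 kb of Mir208b lay at the starts of Efs and Ngdn, with log2 fold changes of 0.11 (SE 0.17) and 0.035 (SE 0.13). Those within 50 kb of Mir499 lay at the start of Gss, a glutathione synthesis gene, and in an intron of Trpc4ap, with log2 fold changes of 0.16 (SE 0.13) and 0.27 (SE 0.22). No peak in the table lay at the starts of Myh7 or Myh7b within that distance.

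**Figure D5:**
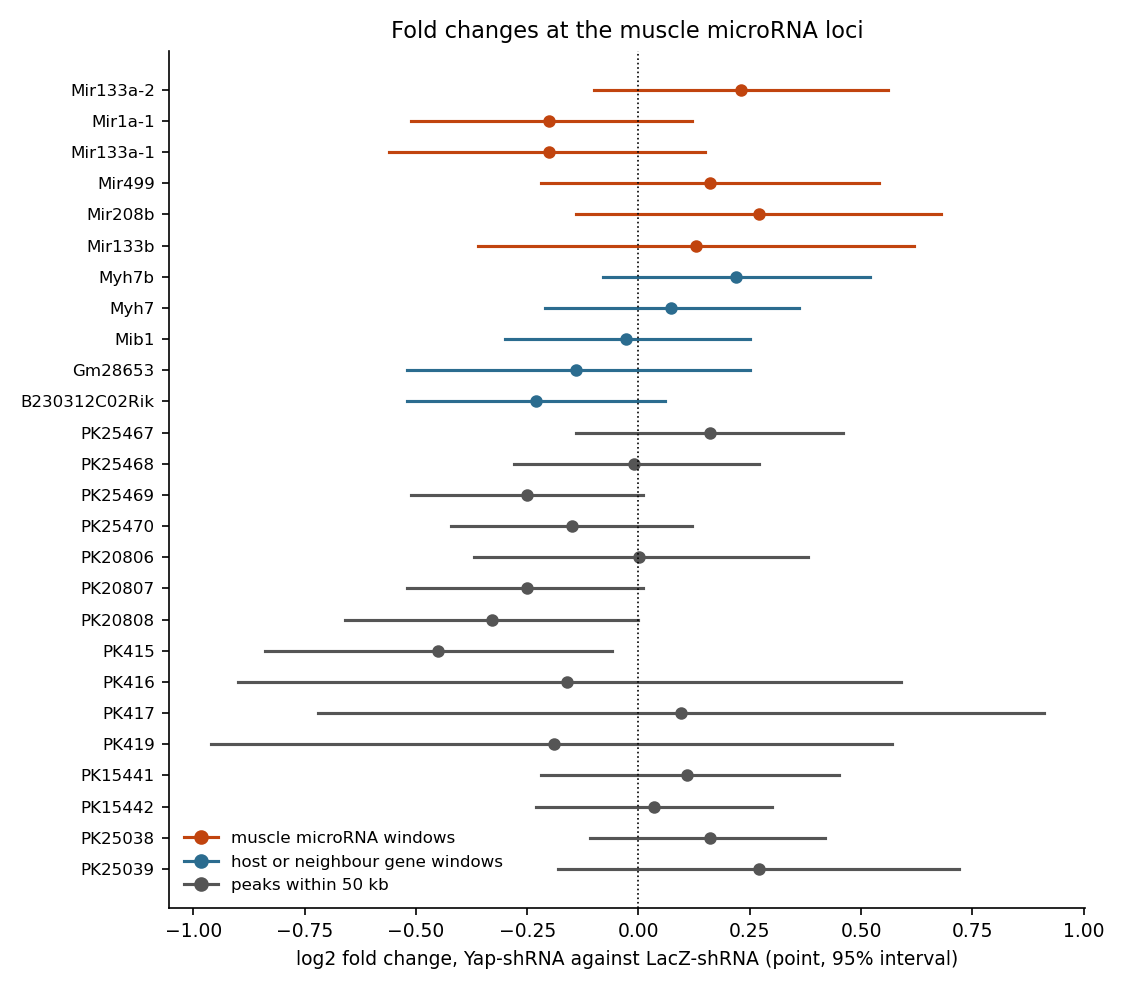
Log2 fold change, Yap-shRNA against LacZ-shRNA, with its 95% interval for the 6 muscle microRNA windows (orange), 5 host or neighbour gene windows (blue) and the 15 peaks within 50 kb (grey). The intervals of the microRNA and host windows include 0, those of PK415 (-0.84 to -0.06) and, barely, PK20808 (unadjusted p 0.047) do not, and none of the adjusted p-values was below 0.449.

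High window levels and called peaks did not always go together. Mir133a-2 and Mir1a-1 had no overlapping peak in the table despite their levels. Among other windows of this length that overlap no other window and were at least as high as Mir133a-2, 10 of 14 (71.4%) overlapped a peak, and for Mir1a-1 the count was 69 of 81 (85.2%). For Mir499, also without a peak, it was 803 of 1110 (72.3%), whereas for Mir208b and Mir133b, at ordinary levels, it was 12.9% and 7.93%. These shares are descriptions of the tables and carry no test.

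The other genes of the pathway were described by counts. Of 16 genes for microRNA processing and silencing, all with a window, 0 passed the threshold, 10 were higher and 6 lower, and the median log2 fold change was 0.033. Xpo5, which exports hairpin precursors from the nucleus, had the smallest p among the higher ones (0.19, SE 0.18), and its window overlaps those of other genes. Lin28b, which blocks the maturation of let-7, held 23.7, 16.3 and 23.6 CPM in LacZ-shRNA and 15.8, 20.8 and 15.1 CPM in Yap-shRNA (log2 fold change -0.33, SE 0.17, adjusted p 0.946 in edgeR). Of 12 transcription factors known to act at muscle microRNA genes, 0 passed, 3 were higher and 9 lower, with a median of -0.049. Myog, a myogenic factor that binds E-boxes, held 29.7, 32.0 and 32.6 CPM in LacZ-shRNA and 34.8, 32.7 and 40.1 CPM in Yap-shRNA (log2 fold change 0.19, SE 0.14). Myf6, the myogenic factor most abundant in adult fibres, was at -0.25 (SE 0.14). For neither did the difference pass the test (adjusted p 0.949 in edgeR for Myog and 0.946 for Myf6).

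Known mRNA targets of the muscle microRNAs, whose promoters these windows cover and whose RNA was not measured here, had 23 of 24 genes with a window. The threshold was passed by 0, with 10 higher, 13 lower and a median log2 fold change of -0.025. Notch3, a receptor gene, had the smallest p among the higher (0.24, SE 0.14), and Meox2, a homeobox gene of muscle development, among the lower (-0.39, SE 0.18, unadjusted p 0.0356, adjusted p 0.946 in edgeR). The Meox2 window overlaps that of Gm29007. Of 24 other microRNA genes that muscle expresses, 11 had a window, 0 passed, 6 were higher and 5 lower, and the median was 0.016. Mir22, a muscle-enriched microRNA, held 44.3, 62.8 and 73.7 CPM in LacZ-shRNA and 51.0, 45.5 and 51.0 CPM in Yap-shRNA. Its log2 fold change was -0.30 (SE 0.15, adjusted p 0.946 in edgeR), and it passed only when LacZ-shRNA replicate 1, its lowest sample, was left out (-0.50, adjusted p 0.0107). Mir30c-1 was at 0.29 (SE 0.21). Of 23 microRNA genes of other cell types, 11 had a window, 0 passed, 6 were higher and 5 lower, with a median of 0.011, among them Mir143 of smooth muscle at 0.13 (SE 0.19) and the neuronal Mir124-2hg at -0.25 (SE 0.18).

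The windows whose levels over the 6 samples were most like the mean of the muscle microRNA windows were Gm47297, Gm25545 and Tgif1-ps, with Pearson's r of 0.996, 0.994 and 0.994 on log2 CPM. They were the highest of 38873 windows searched over only 6 samples that share their libraries, so values of this size are given as a description without a p. Among the members themselves, r ran from -0.814 for Mir133b with Mir1a-1 to 0.60 for Mir133a-2 with Mir1a-1.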

How the data were processed

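ATAC-seq reads of 3 LacZ-shRNA and 3 Yap-shRNA pools were, per the study's methods and processing notes, mapped to GRCm38 with BWA 0.7.17, cleared of duplicates with SAMtools 1.8, used to call peaks with MACS 1.4.2-1 and counted with featureCounts 1.5.0 by the authors. The deposited tables hold raw read counts, as whole numbers, in peaks and in windows around GENCODE starts, and the authors had dropped features whose mean count was below 10. For whole-gene counts the study's methods give a mapping quality minimum of 10 and default featureCounts options. Whether both apply to the window and peak tables is not stated, so overlapping windows (10344 of 49366) and repeats have uncertain counts. Replicates are pools of muscles, and p-values measure the spread between these pools.

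Counts were compared over all windows or all peaks with edgeR 4.0.16 in R 4.3.3 (TMM factors, quasi-likelihood test, no covariate, Benjamini-Hochberg threshold 0.05), after a check on simulated data. Levels are TMM-normalised CPM. Alternatives used DESeq2 1.42.0 and limma 3.58.1. Named genes were the members, genes overlapping a hairpin, and in each gene list any gene past the threshold and up to 2 with the smallest p in each direction. Named peaks were those over a member window or with the smallest p at a locus. B230312C02Rik and the other named peaks were chosen after their values were seen. Members and lists were chosen with earlier results of these data known. Exact permutation tests used scipy 1.17.1. Intervals of fold changes are 95% intervals of the difference between groups, judged against the spread between samples. They do not give the range of single samples.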

Additional observations from a re-analysis of the deposited data

How the results depend on the processing

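Under every alternative run (the likelihood-ratio test, DESeq2, limma voom, RLE factors, library size alone, a mean count of at least 50, an adjusted p under 0.01, a replicate block and each sample left out) 0 of the 6 microRNA windows and 0 of the nearby peaks passed the threshold. DESeq2 gave an adjusted p to 2 of the 6 windows and 12 of the 15 peaks. Over all windows DESeq2 called 20, limma voom 23 and the likelihood-ratio test 33 in place of 11, and 4 to 157 with 1 sample left out. Over all peaks DESeq2 called 118 and the likelihood-ratio test 378 in place of 223, with 136 at a mean count of at least 50 and 103 at an adjusted p under 0.01, and 94 to 447 with 1 sample left out.

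Fold changes near 0 turned. With 1 sample left out, log2 fold changes ran from -0.40 to 0.0088 for the Mir133a-1 window, from -0.032 to 0.24 for Mir133b, from -0.036 to 0.42 for Mir499, from -0.28 to 0.29 for the peak over the Mir133a-1 window, from -0.13 to 0.13 for Mib1, from -0.018 to 0.19 for Myh7, from -0.003 to 0.28 for Mir143 and from -0.095 to 0.055 for PK25468. The peak over the Mir133a-1 window was at -0.099 with limma voom, -0.0026 with RLE factors, -0.0023 at a mean count of at least 50 and -0.07 with the replicate block. Library size alone, which shifts the median of all peaks to 0.14, put PK25468 at 0.14 and Mib1 at 0.033. Of 377 recomputed fold changes 357 kept direction and side of the threshold, 19 turned, and that of Mir22 passed without LacZ-shRNA replicate 1. The alternatives for hosts, list genes and peaks away from the windows were chosen after seeing the data. The cause was not tested.

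Once the group mean of each window was subtracted from the log2 levels, samples of the same number correlated at 0.191, -0.121 and 0.0923. LacZ-shRNA and Yap-shRNA samples of different numbers ran from -0.26 to 0.199 on the same measure. These values did not show that the numbers pair the samples. Whether pools of the same number share animals is not known. The block gave 13 windows and 207 peaks and changed no call at the microRNA loci.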

Other observations

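The ratio of the Mir133a-2 to the Mir1a-1 window, which no scaling factor can change, was 1.85, 1.70 and 2.43 in LacZ-shRNA and 2.69, 2.67 and 2.75 in Yap-shRNA. This comparison was chosen after the values were seen. The groups did not overlap, the Yap-shRNA samples were closer to each other than the LacZ-shRNA samples, and the difference in mean log2 ratio was 0.46 (LacZ-shRNA 0.98 ± 0.27, Yap-shRNA 1.43 ± 0.022, SD, n = 3 per group). The two-sided exact permutation p was 0.1, the smallest that 3 samples against 3 can give, and 0.75 after Benjamini-Hochberg adjustment over the 15 pairs of member windows. The ratio of Mir133a-2 to Mir133a-1 also had groups that did not overlap, at 3.96 to 6.25 in LacZ-shRNA and 6.46 to 9.11 in Yap-shRNA, and these were 2 of the 15 pairs, which share Mir133a-2. Groups did not overlap in 10.1% of all single windows, which is another measure, and the share over ratios of window pairs was not computed.

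The 3 low peaks around Mir206 and Mir133b resemble each other in sequence. Over 300 bases that start or end at a MEF2 core match, PK416 and PK419 had 96.7% of bases in common, and PK416 and the reverse complement of PK417 93.0%. Their counts are therefore uncertain.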
